A study of Mus musculus with 8 samples.

Results

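The Jmjd2c knockdown of mouse embryonic stem (ES) cells, profiled on 2 arrays, was compared with a control hairpin against GFP, profiled on 3 arrays, and these are 5 of the 8 arrays of the study. They were chosen by the sample titles. The study's title names the role of Jmjd2b and Jmjd2c in ES cell identity as its subject. Its remaining 3 arrays, of a Jmjd2b knockdown, entered the main fit only through the estimate of spread. They also entered the choice of the probe set given for a gene. In alternative fits that correct for a grouping of arrays (a block), they helped to estimate the block and so could move the changes themselves. All cells were male ES cells of strain 129S4/Svjae, grown with leukemia inhibitory factor (LIF). They were infected with lentivirus carrying a short hairpin RNA against GFP (anti-GFP control) or against Jmjd2c, selected with puromycin and passaged before RNA was taken. Every group therefore carried a lentivirus and went through selection, and no uninfected cells were among the 8 arrays. Nothing in the labels says how many different hairpins were used or whether arrays of a group came from separate infections, so the spread behind each p-value is that of these arrays and may be technical.

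Jmjd2c, listed on the array as Kdm4c, is a JmjC-domain demethylase of the KDM4 family, which removes methyl groups from H3K9 and H3K36 and so can act against repressive chromatin. ES cells kept with LIF hold a naive state, marked by factors such as Klf4, Esrrb and Tbx3 around the core of Pou5f1, Sox2 and Nanog. On leaving it they pass through a formative and then a primed epiblast state, marked by Fgf5 and Otx2, before germ layers form.

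Each array gave 1 linear intensity for each of 45101 probe sets, of which the 34945 with exactly 1 gene symbol were tested. They represent 18193 genes, and a gene is given below by its brightest probe set. Changes are differences of group means of log2(intensity + 16), knockdown minus control, with the standard error (SE) of the limma fit and an adjusted p over all 34945 probe sets. Values past an adjusted p of 0.05 are called higher or lower. Adding 16 understates the change of dim genes. Array medians lay between 44.7 and 46.5, so no array stood out in overall brightness. Ratios of 3' to 5' probe sets of actin, which rise with RNA degradation, were 1.63, 1.45 and 1.56 in the controls and 1.48 and 1.43 in the knockdown. Log2 intensities correlated across probe sets at 0.991 to 0.994 among controls, at 0.981 between the knockdown arrays and at 0.970 to 0.984 between the groups. The low end of the arrays differed: control arrays 1 and 2 held 412 and 439 values of exactly 1, whereas control array 3 and knockdown arrays 1 and 2 held 173, 229 and 241 values below 1. The labels name no such split, called the low-value split below, and what made it was not tested. Only control array 3 lay on the same side of it as the knockdown arrays. A fit within that side of the split therefore rests on this 1 control array. The fit with the split as a block took in all 8 arrays. Of these, Jmjd2b knockdown arrays 1, 2 and 3 held 172, 0 and 231 values below 1. The knockdown arrays held exactly equal values in 0.621% of probe sets, and shared 0.601% and 0.599% with Jmjd2b knockdown array 3. Control array 3 shared 0.0732% and 0.0621% with the knockdown arrays, and the other controls 0.0443% to 0.0554%. By this measure no control grouped with the knockdown arrays. Control arrays 1 and 2 shared 0.428% with each other, and 0.412% and 0.426% with Jmjd2b knockdown array 2. Control array 3 shared 0.459% with Jmjd2b knockdown array 1. Among the control and Jmjd2c knockdown arrays alone, this grouping therefore cannot be told apart from the knockdown. Jmjd2b knockdown arrays 1, 2 and 3 lay in different groupings and so link them. No fit took this grouping as a block, so its part in the changes was not tested.

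The targeted transcript was low in both knockdown arrays. Kdm4c had intensities of 1332, 1300 and 1210 in control arrays 1 to 3 and 142 and 469 in knockdown arrays 1 and 2. The groups did not overlap, and the knockdown mean was 23.9% of the control mean, with array 1 the lower of the pair. Its log2 change was -2.23 ± 0.35 (SE; adjusted p = 0.00686), and it was -3.04 with knockdown array 1 alone and -1.42 with knockdown array 2 alone. Kdm4c has a single probe set with 1 symbol, so this value has no second measurement on the array.

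The other KDM4 genes did not pass the test. Kdm4b, whose product shares the demethylase activity of Kdm4c, had 421, 339 and 643 in the controls and 245 and 285 in the knockdown, below every control. Its log2 change of -0.74 ± 0.31 (SE) had an adjusted p of 0.190, and the control arrays themselves spread widely for this gene. Kdm4a had 953, 1046 and 1129 in the controls against 808 and 979 in the knockdown, and the groups overlapped. Kdm4d, a family member known mainly from testis, had 25.5, 16.4 and 14.5 against 19.5 and 14.3, dim in every array.

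**Figure D1:**
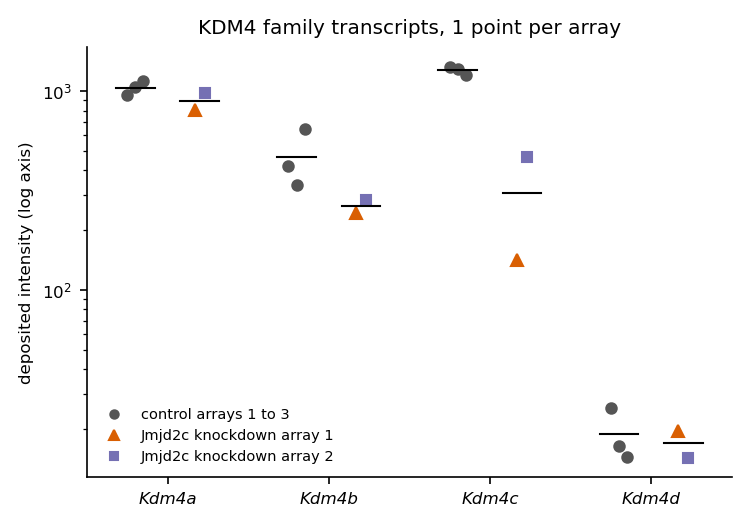
Deposited intensity (log axis) of the 4 Kdm4 genes, with 1 point per array and a line at each group mean. Kdm4c lies between 1210 and 1332 in the controls and at 142 and 469 in the knockdown arrays, while Kdm4a and Kdm4d overlap between the groups.

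Of the 34945 probe sets, 1227 were higher (3.51%) and 1341 lower (3.84%) in the Jmjd2c knockdown. At the level of genes, 732 were higher (4.02%) and 901 lower (4.95%), and the median log2 change over all genes was -0.02. The counts of list genes below are to be read beside these shares. Lists and members were chosen with earlier results of these data known, so their counts are no independent support. Among 675 called genes with more than 1 probe set above the median, 86 had such a probe set whose log2 change had the opposite sign. Changes of at least 2-fold were seen in 243 of the higher and 308 of the lower genes. All called probe sets had both knockdown arrays outside the range of the 3 controls, as did 17.2% (above) and 18.9% (below) of all probe sets tested. In either direction, 2568 probe sets (7.35%) and 1633 genes (8.98%) were called. At an unadjusted p under 0.05, 7546 probe sets would pass.

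**Figure D2:**
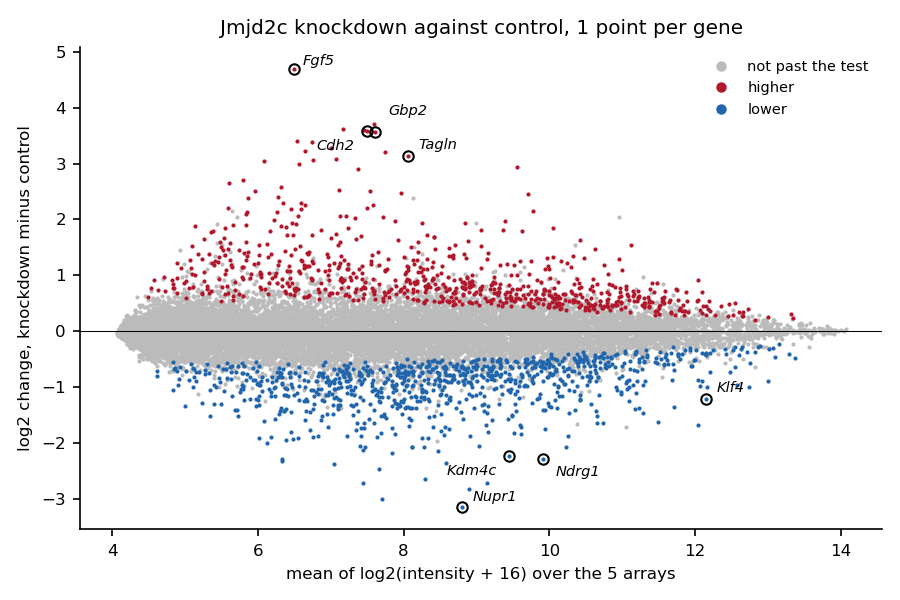
Log2 change against the mean of log2(intensity + 16) over the 5 arrays, with 1 point per gene. Genes past the test are coloured (732 higher, 901 lower), and the circled genes are Kdm4c and 7 genes described in the text, from Fgf5 (4.69) to Nupr1 (-3.14).

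These counts depend on which arrays enter the fit. With only the 5 arrays of the comparison, 454 probe sets were higher and 581 lower. Without control array 3 the counts were 304 and 290, and without control array 1 they were 557 and 734. Leaving out 1 of the 2 knockdown arrays leaves the other alone, so no spread between knockdown arrays enters that test. Counts given below without a knockdown array are therefore calls of 1 array, with the spread taken from the other groups. With the low-value split as a block, 630 were higher and 910 lower. Within the arrays that hold values below 1, where 1 control stands against 2 knockdown arrays, 0 probe sets passed with limma, and 3927 (11.2%) had an unadjusted p under 0.05.

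The controls were not equally far from the knockdown. Control array 2 was the control nearest to the knockdown in 70.1% of the probe sets called higher, although it was the highest control in 34.5% of all probe sets. It was also the nearest in 57.9% of those called lower, against 31.2% of all probe sets in which it was the lowest control. Control array 3 was nearest in 12.1% and 8.20%. What sets control array 2 apart was not tested.

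Taken 1 at a time, the knockdown arrays differed in how far they lay from the controls. Knockdown array 1 had 391 probe sets at least 2-fold above the control mean and above every control, and 535 at least 2-fold below. Knockdown array 2 had 883 and 767. In both arrays together, 237 were above and 249 below by that measure, and 0 probe sets moved at least 2-fold up in one array and down in the other. The knockdown arrays lay at least 2-fold apart in 394 probe sets with array 1 the brighter and in 769 with array 2 the brighter, and the pairs of controls in 63 to 175 probe sets. Knockdown array 2, the array with more Kdm4c transcript left, was thus the one with more probe sets far from the controls.

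Genes of the naive state were lower as a group. Of 20 measured naive pluripotency genes, 7 fell and 0 rose, against 4.95% of all genes falling, and the median log2 change was -0.43. The 7 were Tbx3, Tet2, Klf4, Esrrb, Tfcp2l1, Klf5 and Zfp42. Klf4, a transcription factor that sustains the naive state downstream of LIF, had 6201, 6039 and 6831 in the controls and 2744 and 2754 in the knockdown. The knockdown arrays were nearly equal and lay far below the controls, with a log2 change of -1.20 ± 0.11 (SE; adjusted p = 0.00116). A second Klf4 probe set had a change of -1.15. In bulk samples, fewer cells of a type and less RNA per cell cannot be told apart.

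Esrrb, an orphan nuclear receptor of the naive network, had 2406, 2666 and 3180 against 1477 and 1386, without overlap. Its log2 change was -0.93 ± 0.13 (SE; adjusted p = 0.00468). Tbx3, a T-box factor, had 2000, 1613 and 2154 against 636 and 796, a log2 change of -1.40 ± 0.27 (adjusted p = 0.0150). Both fell by a similar amount in each knockdown array. Tet2, a dioxygenase that oxidises 5-methylcytosine, fell further in knockdown array 2, from 1403, 1306 and 1615 in the controls to 675 and 421. The smallest of the 7 falls was that of Zfp42 (Rex1), with 9043, 8893 and 9011 against 7702 and 6847, which still left it bright. Other naive genes did not pass: Klf2 had 4111, 4916 and 4915 against 4359 and 4023, Nr5a2 2441, 2843 and 2973 against 2682 and 2392 and Fbxo15 3846, 3391 and 3424 against 3840 and 3839. Fgf4 and Dppa5a lay below every control in both arrays but missed the threshold (adjusted p = 0.0518 and 0.0773). The count of 7 became 4 without control array 1 or 2 or with no trend in the variance, and 3 without control array 3.

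The core factors Pou5f1, Sox2 and Nanog did not pass the test. Pou5f1 had 7784, 7870 and 7832 in the controls and 7410 and 7536 in the knockdown, a log2 change of -0.07 ± 0.05 (SE; adjusted p = 0.537). Sox2 had 9542, 9592 and 9698 against 8683 and 8971 (adjusted p = 0.207), and both knockdown arrays lay below the controls by a small margin. Nanog had 5714, 5316 and 6022 against 3908 and 4675, a log2 change of -0.41 ± 0.15 that did not pass (adjusted p = 0.143), and its knockdown arrays also lay below every control. These 3 genes, added after their values were seen because they define the cell type, all stayed bright. The list of core and general pluripotency genes held 19 measured genes, of which 1 was higher and 2 lower (median 0.13). Of all genes, 4.02% were higher and 4.95% lower. Gdf3, a TGF-beta family ligand, rose from 1164, 1290 and 1168 to 1550 and 2700, and Tet1 and Tdgf1, a Nodal coreceptor, fell by 0.50 and 0.29 on the log2 scale. Gdf3 and Tet1 missed the threshold with the 5 arrays alone (adjusted p = 0.109 and 0.0793) and Tdgf1 with the low-value split as a block (adjusted p = 0.0856). Utf1, Lin28a and Cdh1, the E-cadherin gene, overlapped between the groups.

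In the pathway from LIF to STAT3, 1 of 15 genes rose and 1 fell (median -0.24), near the shares of all genes (4.02% higher, 4.95% lower). Il6st, which encodes the shared receptor subunit gp130, rose from 753, 1091 and 957 to 1466 and 1359 (log2 change 0.60 ± 0.15, adjusted p = 0.0345). Pim3, a kinase induced by STAT3, fell from 2694, 2917 and 2928 to 1980 and 1522 (log2 change -0.71 ± 0.12, adjusted p = 0.00906). The call of Il6st was lost with the 5 arrays alone (adjusted p = 0.102) and with the low-value split as a block (adjusted p = 0.124). Among 15 Kruppel-like factors, 4 fell and 0 rose: Klf4 and Klf5, given above, and Klf10 and Klf15. Klf10, a factor induced by TGF-beta, had 3323, 2993 and 3393 against 1816 and 1505, and Klf15, known from metabolic control, had 389, 309 and 296 against 102 and 150.

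Some genes of the primed and formative epiblast rose strongly. Of 18 measured genes 5 were higher and 0 lower, against 4.02% of all genes higher, and the median was 0.52. Fgf5, the growth factor that marks the epiblast after implantation, had 3.57, 17.4 and 6.77 in the controls and 466 and 821 in the knockdown. It was near the floor in all controls and bright in both knockdown arrays, and its log2 change of 4.69 ± 0.38 (SE; adjusted p = 7.04e-04) was the largest rise by the rule for named genes. A dimmer Fgf5 probe set had a change of 1.13. Cdh2, N-cadherin, had 43.7, 63.5 and 47.2 against 717 and 852, a log2 change of 3.58 ± 0.18 (adjusted p = 5.79e-05), and its second probe set changed by 3.41. Zic2, a zinc finger factor, had 207, 329 and 237 against 1045 and 969, and Otx2, a homeobox factor that drives exit from the naive state, had 992, 824 and 797 against 2368 and 2075. These 4 genes were far above the controls in each knockdown array, and Sox4, the 5th, rose by 0.84 ± 0.13 on the log2 scale.

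Other primed genes were high mainly in knockdown array 1. Pou3f1 (Oct6) had 249, 390 and 231 in the controls and 2721 and 458 in the knockdown. Dnmt3b, a de novo DNA methyltransferase, had 1421, 2645 and 1793 against 6157 and 2241, and Dnmt3a had 342, 496 and 332 against 960 and 335. For Dnmt3a and Dnmt3b knockdown array 2 lay within the control range, and none of the 3 genes passed the test. The median of the 18 genes was 0.89 in array 1 and 0.24 in array 2. Krt18, Lef1, Dusp6 and Cldn6 overlapped with the controls.

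Some markers of neural ectoderm and of mesoderm were higher, most of them dim in the controls. Of 18 neural genes 4 rose and 0 fell (median 0.23), against 4.02% of all genes higher and 4.95% lower. Nefl, the light neurofilament subunit, had 504, 523 and 372 against 1449 and 1874, a log2 change of 1.80 ± 0.18 (SE; adjusted p = 0.00131). Pax6, a homeobox factor of the neural plate and eye, had 15.6, 43 and 41.5 against 164 and 154, and Nefm, the medium neurofilament subunit, 30.3, 29.8 and 23 against 190 and 96.6. Fabp7, a fatty acid binding protein of radial glia, had 11.7, 4.79 and 15.7 against 306 and 74.5. Like every called rise, all 4 were above every control in both knockdown arrays.

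Of 18 mesoderm and primitive streak genes 5 rose (4.02% of all genes did) and 0 fell (median 0.40): Fgf8, Evx1, Twist1, Wnt3 and Foxc1. Fgf8, a ligand of the streak, had 10.1, 6.40 and 6 against 141 and 121, a log2 change of 2.65 ± 0.27 (SE; adjusted p = 0.00160). Wnt3, needed for the streak to form, had 8.03, 6.20 and 1.57 against 37 and 29.3, and Evx1, a homeobox factor of the posterior streak, 6.23, 10.6 and 3.03 against 52.1 and 44.7. The control values of these 3 genes lay under 16, the constant added before the logarithm. Mixl1 had 14.5, 13.2 and 11.7 against 64.7 and 52.4 but missed the threshold (adjusted p = 0.0792), and Mesp1, Tbx6, Hand1 and Foxc2 overlapped between the groups. The count of 5 was 2 without control array 3 or among brighter probe sets alone, and 3 without knockdown array 2.

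Other lineages did not move as a block. Of 21 endoderm genes 2 rose and 1 fell (median 0.15), beside 4.02% of all genes higher and 4.95% lower. Fst, follistatin, an activin antagonist, had 79.2, 69.5 and 34.4 against 409 and 716, a log2 change of 2.91 ± 0.45 (SE; adjusted p = 0.00642), and Dab2, an endocytic adaptor, had 40.9, 46.6 and 32.5 against 68.4 and 87.6. Amn, a membrane protein of visceral endoderm, fell from 88.4, 93.4 and 96.6 to 52.1 and 39.9, and Gata6, the primitive endoderm factor, had 25.4, 31.8 and 32.6 against 14.8 and 13.2 (adjusted p = 0.0634). Dab2 missed the threshold with the 5 arrays alone (adjusted p = 0.0795).

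Of 19 trophectoderm genes 4 fell and 1 rose (median 0.22), beside 4.95% of all genes lower and 4.02% higher. Krt19, a simple keratin, had 301, 309 and 344 against 130 and 72.5, Esx1 55.8, 43.4 and 47.5 against 9.62 and 10.8, Ascl2 162, 97.5 and 119 against 43.4 and 43.3 and Gata2 181, 144 and 134 against 69.7 and 85.5. All 4 fell by 0.85 to 1.55 on the log2 scale, without overlap, as holds for every called fall. The gene that rose was Cdx2, with 5.63, 5.94 and 1.14 against 28.6 and 18.6, near the floor in the controls. The count of falls was 2 without control array 1, without control array 3 or with the low-value split as a block.

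The labelled cell type was set against fibroblast and feeder markers, since ES cells are often grown on feeders. Of 19 measured markers 9 lay above every control in both knockdown arrays (17.4% of all genes did) and 3 below (21.2% of all genes did). Past the test, 2 of the 19 markers rose and 3 fell, beside 4.02% of all genes higher and 4.95% lower. The median of the 19 markers was 0.15. Their summed intensity was 2803 to 3188 in the controls and 4650 to 4776 in the knockdown, and most of that rise lay in Acta2 (1403, 1805 and 1695 against 2774 and 2570) and Tagln (46.9, 135 and 129 against 917 and 1011). Of the collagen and matrix genes, Col1a1, Col3a1, Dcn, Lum and Postn lay between 7.18 and 43.1 in all 5 arrays, under the median of all probe sets (63.1). This does not hold for the whole list: 7 of the 19 markers had a control or knockdown mean above that median, Acta2, Tagln and Thy1 among them. Thy1, a fibroblast surface protein, fell from 114, 106 and 123 to 53.1 and 17.4, and Pdgfrb and Loxl1 fell by 0.96 and 0.86 on the log2 scale. The other 7 above every control, Col1a1, Col5a1, Col6a1, Dcn, S100a4, Fap and Prrx1, had log2 changes of 0.57, 0.20, 0.18, 0.31, 0.40, 0.34 and 0.11 and did not pass. With the low-value split as a block Acta2, Tagln, Pdgfrb and Loxl1 missed the threshold (adjusted p = 0.0661, 0.0544, 0.112 and 0.0703). The lowest value on any of the 5 arrays was 0.190, so no marker could be listed at 0, and a value above 0 does not show its presence. Acta2 and Tagln stand in the actin and contractile list too, and the part of such cells in its rise was not tested.

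Among the 12 largest rises were 3 interferon-inducible GTPases, Irgm1, Gbp2 and Gbp2b. Irgm1, an immunity-related GTPase, had 28.6, 90.3 and 54 in the controls and 814 and 958 in the knockdown, a log2 change of 3.70 ± 0.32 (SE; adjusted p = 7.04e-04). Gbp2, a guanylate-binding protein, had 26.8, 98.1 and 62.8 against 599 and 1199 (log2 change 3.57 ± 0.42), and Gbp3 12, 46.1 and 39.8 against 408 and 335 (log2 change 3.07 ± 0.32). The controls spread several-fold for these genes, with control array 2 the highest, and both knockdown arrays were well above all of them. Gbp2b, a close copy of Gbp2 whose probe set may share its signal, had 5.31, 89.5 and 49.5 against 343 and 1155, and Gbp7 had 31.9, 67.7 and 45.4 against 130 and 206. Gbp6 and Gbp8 were dim in all arrays, with log2 changes of 0.29 ± 0.17 and -0.03 ± 0.18. Among the other immunity-related GTPases, Igtp (173, 152 and 116 against 177 and 175), Irgm2 (70.6, 54.4 and 47.5 against 72.5 and 65.3) and Iigp1 (36.1, 30.6 and 25.9 against 49.6 and 43.6) did not pass. The family members other than the largest rises were picked after the values were seen.

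The interferon and antigen presentation list as a whole was mixed, with 4 of 22 genes higher, 2 lower and a median of 0.06. Of all genes, 4.02% were higher and 4.95% lower. Besides Gbp2 and Gbp3, Irf1, a transcription factor induced by interferon, rose from 672, 973 and 770 to 1899 and 1935, a log2 change of 1.25 ± 0.17 (SE; adjusted p = 0.00415), and Oasl2 rose from 7.13, 12.2 and 3.71 to 58.2 and 27.7. Stat2, a subunit of the type I interferon response complex, fell from 64.2, 76.2 and 96.9 to 33.9 and 26.8, and Oas1a from 490, 448 and 509 to 319 and 136. Members of the same response thus lay on both sides. Oas1a missed the threshold with the 5 arrays alone (adjusted p = 0.0925). The median of the list was 0.15 in knockdown array 1 and 0.00 in knockdown array 2.

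The list of actin cytoskeleton and contractile genes, which also holds YAP targets, had the highest share of rises among the 48 lists. In it 12 of 22 genes were higher and 1 lower, with a median of 0.76, against 4.02% of all genes higher. As the lists were chosen with earlier results of these data known, this rank is no independent support. The 12 were Myl9, Tagln, Ccn2, Tpm1, Zyx, Ccn1, Cnn2, Amotl2, Ankrd1, Vcl, Tpm4 and Acta2. Myl9, the regulatory light chain of smooth muscle and non-muscle myosin, had 10.8, 26.5 and 25.4 against 499 and 272, a log2 change of 3.41 ± 0.52 (SE; adjusted p = 0.00617). Tagln, transgelin, an actin-binding protein of smooth muscle, rose by 3.14 ± 0.55 on the log2 scale (adjusted p = 0.0106), and Tpm1, a tropomyosin, had 231, 354 and 348 against 1044 and 1192. In each, both knockdown arrays lay far above the highest control. The matrix-associated proteins Ccn2 (CTGF) and Ccn1 (CYR61), both known targets of YAP and TEAD, had 194, 479 and 342 against 1470 and 4390 and 168, 196 and 158 against 385 and 796, with knockdown array 2 the higher. Amotl2 and Ankrd1, also YAP targets, rose by 1.21 and 0.86.

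The list also holds proteins of focal adhesions, of which Zyx and Vcl rose and Actn1 and Actn4 did not pass. Zyx, zyxin, had 77.7, 98.5 and 86.7 against 219 and 429, a log2 change of 1.65 ± 0.28 (SE), and Vcl, vinculin, had 1453, 1825 and 1552 against 2488 and 3071, a log2 change of 0.78 ± 0.13. Cnn2, calponin 2, had 592, 822 and 761 against 1848 and 1803, with the knockdown arrays almost equal. Actc1, cardiac alpha-actin, had 21.2, 15 and 48.9 against 633 and 280, a log2 change of 3.38 ± 0.66 (SE; adjusted p = 0.0157), and was among the 12 largest rises. Acta1, skeletal alpha-actin, picked after its values were seen, had 14.6, 38.2 and 96.4 against 494 and 440, and probe sets of such near-identical actins may share signal. Actn1 had 2961, 3734 and 3450 against 3522 and 4429 and Actn4 1980, 2694 and 2305 against 2529 and 2744, and Myh9, Vim and Tpm2 did not pass either. Of the same list Tagln2 fell from 3105, 2654 and 2879 to 1806 and 1136. Without control array 3 the higher count was 6, and with the low-value split as a block 7, a setting in which Tagln (adjusted p = 0.0544) and Actc1 (adjusted p = 0.0513) missed the threshold.

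The remaining genes of the 12 largest rises were Igfbp3, Efnb2, Fgfbp1 and Lpar4. Igfbp3, a binding protein of insulin-like growth factors, had 30.0, 77.4 and 46.9 against 493 and 1188, a log2 change of 3.60 ± 0.38 (SE; adjusted p = 0.00160). Efnb2, an ephrin ligand, had 29.1, 50.2 and 30.7 against 288 and 820, and Fgfbp1, which releases FGFs from the matrix, had 18.9, 32.8 and 24.5 against 175 and 765. In these 3 genes knockdown array 2 was the higher by more than 2-fold. Lpar4, a receptor for lysophosphatidic acid, had 44.9, 105 and 76 against 730 and 877, about equal in the knockdown arrays (log2 change 3.21 ± 0.27, adjusted p = 7.04e-04). A further 3 genes with little spread were picked after their values were seen. Prickle1, of planar cell polarity, had 19.2, 33.1 and 24.8 against 342 and 288, Chst15, a sulfotransferase, 8.02, 18.3 and 14.2 against 214 and 238, and Lrp2 (megalin), an endocytic receptor, 48.5, 65.1 and 46.9 against 365 and 396.

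**Figure D3:**
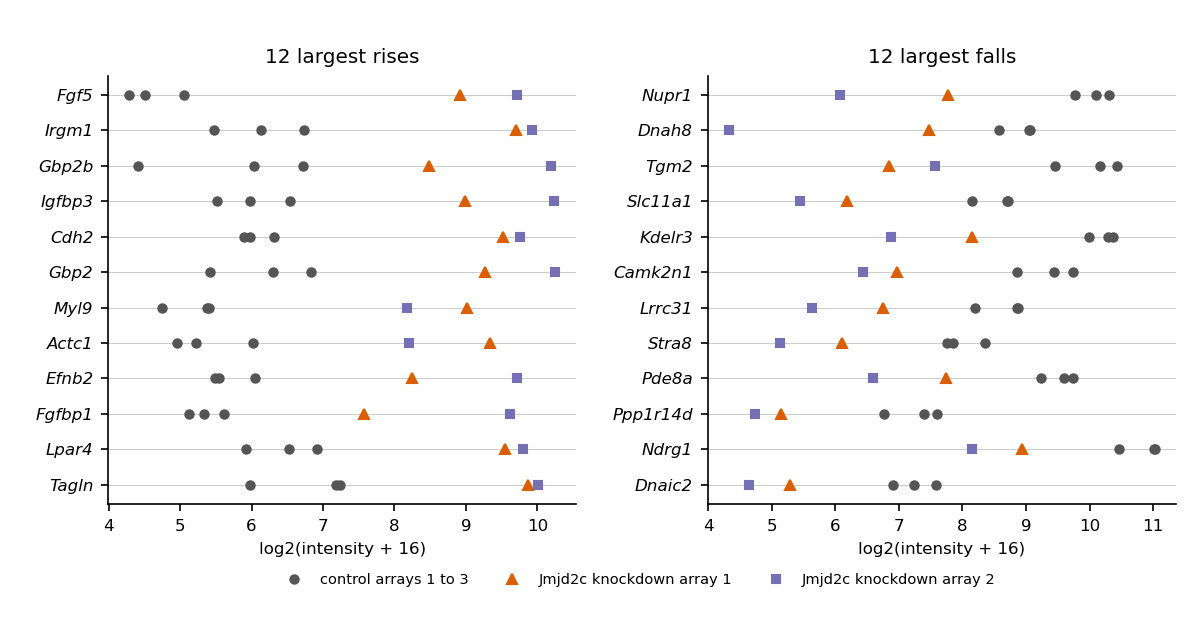
Log2(intensity + 16) of the 12 genes with the largest rises (left) and the 12 with the largest falls (right), with circles for the 3 control arrays, triangles for Jmjd2c knockdown array 1 and squares for array 2. By the rule that chose these 24 genes both knockdown arrays lie outside the range of the controls. Array 2 lies farther from them in Nupr1, Dnah8 and Fgfbp1.

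Of 19 FGF and ERK genes 5 were higher and 0 lower (median 0.18), against 4.02% of all genes higher. They were the ligands Fgf5, Fgf8 and Fgf15, the receptor Fgfr1 and the feedback gene Dusp4. Fgf15 had 157, 203 and 132 against 504 and 369, a log2 change of 1.33 ± 0.25 (SE; adjusted p = 0.0129). Fgfr1 had 207, 225 and 213 against 316 and 409, and Dusp4, a phosphatase that ERK signalling induces, had 79.5, 79.1 and 65.2 against 150 and 239. All were above every control, as holds for every called rise. Fgfr1 missed the threshold with the 5 arrays alone (adjusted p = 0.0719). The feedback genes Dusp6, Etv4 and Etv5 did not pass: Dusp6 had 926, 642 and 544 against 898 and 810 and Etv5 3389, 3032 and 2736 against 3254 and 3593. Without control array 3 the higher count was 2.

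Of 20 Wnt genes 5 rose and 1 fell (median 0.34), beside 4.02% of all genes higher and 4.95% lower. The ligands Wnt3, given above, and Wnt4 (19.4, 26 and 28 against 64 and 53.8) rose, as did the receptor Fzd2 (28.6, 141 and 135 against 446 and 496). The receptor Fzd5 fell from 1866, 2168 and 2118 to 1267 and 1360. Sp5, a direct target of beta-catenin, had 23.2, 54.5 and 36.9 against 320 and 129, a log2 change of 2.07 ± 0.35 (SE; adjusted p = 0.00876). Tcf7l1, a nuclear repressor of Wnt targets and of naive genes, had 530, 858 and 760 against 1441 and 1640, a log2 change of 1.11 ± 0.19 (adjusted p = 0.00881). A target and a repressor of the pathway were thus both higher. The higher count was 3 without control array 3, with the low-value split as a block, or without probe sets that may match several transcripts.

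Of 19 Nodal, activin and TGF-beta genes 4 rose and 2 fell (median 0.29), beside 4.02% of all genes higher and 4.95% lower. The ligand Nodal had 608, 873 and 723 against 1234 and 1098, the receptor Acvr2b 376, 566 and 538 against 749 and 836 and the ligand Tgfb2 13.9, 14.4 and 20.4 against 64.7 and 70.0. The antagonist Fst rose, as given above. The coreceptor Tdgf1 fell slightly, and Inhbb, the activin B subunit, fell from 1536, 1432 and 1532 to 637 and 524, a log2 change of -1.35 ± 0.28 (SE; adjusted p = 0.0187). Inhbb was steady among controls and well below them in both knockdown arrays. The higher count was 2 with the 5 arrays alone, with the low-value split as a block, and without control array 1, control array 3 or knockdown array 2.

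In the BMP pathway 3 of 17 genes rose and 1 fell (median 0.29), beside 4.02% of all genes higher and 4.95% lower. Bmp4, the ligand, fell from 675, 532 and 599 to 402 and 121 (log2 change -1.36 ± 0.35, adjusted p = 0.0450). The target genes Id1, Id3 and Msx1 rose. Id3, an inhibitor of helix-loop-helix factors, had 305, 379 and 450 against 812 and 1253, Id1 636, 934 and 1012 against 1440 and 2744, and Msx1 11.9, 16.8 and 9.68 against 58.8 and 83.4. Bmp4 and Id1 were not past the test with the 5 arrays alone (adjusted p = 0.125 and 0.0719) or with the low-value split as a block (adjusted p = 0.133 and 0.115). Of 17 Notch genes 0 passed with limma and 6 had an unadjusted p under 0.05. Notch2 (257, 405 and 377 against 448 and 837) and Jag1 (312, 394 and 299 against 629 and 427) had an adjusted p of 0.0878 and 0.0978.

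Among 14 ephrins and Eph receptors 4 rose and 0 fell (median 0.16), beside 4.02% of all genes higher and 4.95% lower. Besides Efnb2, the ligands Efnb1 (101, 165 and 160 against 321 and 408) and Efna4 (72.5, 96.5 and 84.8 against 163 and 265) and the receptor Epha1 (34.5, 52.1 and 35.3 against 88.1 and 83.8) were higher. With control array 3 left out 1 gene of the list was higher, and with knockdown array 2 left out, 2. Of 16 genes of the IGF system 5 rose and 2 fell (median 0.11). Igf2bp1, an RNA-binding protein of early development, had 1921, 2535 and 2178 against 3211 and 3503, and the insulin receptor substrates Irs1 and Irs2 rose by 0.64 and 1.04. Igfbp4 fell from 418, 248 and 296 to 147 and 105 and Igfbp2 from 6431, 6859 and 7678 to 5340 and 3332, the opposite direction to Igfbp3. With the 5 arrays alone, or without control array 3, 1 gene of this list was higher.

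Falls were broadest in glycolysis and the hypoxia response. All 24 measured genes had a negative log2 change, 13 fell and 0 rose (4.95% of all genes fell), the median was -0.49, and 19 lay below every control in both knockdown arrays, as did 21.2% of all genes. Bnip3, a mitophagy receptor induced by hypoxia, had 6196, 6023 and 7886 in the controls and 2497 and 1715 in the knockdown, a log2 change of -1.68 ± 0.19 (SE; adjusted p = 0.00207). Ndrg1, a stress-induced gene, had 2046, 1388 and 2067 against 476 and 268, Ankrd37 297, 269 and 352 against 103 and 96.6, and Vegfa, the vascular growth factor, 495, 512 and 586 against 194 and 223. In each, both knockdown arrays were more than 2-fold below the lowest control.

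Among the enzymes of glycolysis in the list, those called were Hk1, Hk2, Pfkp, Pfkl, Aldoa, Aldoc and Pgk1. Hk1 and Hk2, the hexokinases of the entry step, had 1990, 1681 and 2088 against 738 and 896 and 3481, 3804 and 3500 against 2422 and 2606. The phosphofructokinase subunits Pfkp and Pfkl had 3051, 3330 and 4199 against 1811 and 1010 and 1558, 1574 and 1710 against 1158 and 1070. The aldolase Aldoc fell by 1.87 on the log2 scale and its paralogue Aldoa by 0.48, and Pgk1, phosphoglycerate kinase, had 10994, 11279 and 11402 against 9155 and 7812. The glucose transporter Slc2a3 had 9081, 10418 and 10395 against 6119 and 8494. Egln3, an oxygen sensor, was the least even of the 13, with 1109, 1256 and 1443 against 870 and 327. Other enzymes did not pass: Tpi1, triose phosphate isomerase, had 8112, 8524 and 8628 against 6656 and 7189 (adjusted p = 0.0701), Ldha 11283, 11776 and 11560 against 10590 and 10869 (adjusted p = 0.240) and Pgam1 8314, 8853 and 8336 against 8167 and 8356 (adjusted p = 0.742). Further genes known to respond to hypoxia, picked after their values were seen, fell too: Bhlhe40 from 1641, 2209 and 2573 to 582 and 412, Ndufa4l2 from 347, 304 and 417 to 128 and 70.4 and Adm, adrenomedullin, from 161, 177 and 182 to 31.1 and 41.4. Slc2a3, Egln3 and Pfkl missed the threshold with the 5 arrays alone (adjusted p = 0.113, 0.115 and 0.0502). In that fit 10 list genes fell, and without control array 3, 6.

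Hypoxia-inducible factors bind the core letters ACGTG. The windows of RefSeq (GRCm38.p6) that run from 250 bases before to 50 after each gene's start were searched for ACGTG on both strands. Of all 32851 windows, 19.6% held it. A gene was counted as holding it if any of its windows did, so counts of genes and this share of windows are unlike measures. Among the 13 list genes that fell, 11 had a window and 9 of these held ACGTG, and among the 11 that did not pass, 9 of 11 did. Holding the letters thus did not part the genes that fell from those that did not pass. Shown are 6 genes that fell, 5′ to 3′ on the strand of the gene, since their windows carry the letters in different numbers and spacings. Capitals mark ACGTG or its reverse complement. The Aldoa stretch is chr7:126799351-126799405 (minus strand), Ankrd37 chr8:45999851-46000100 (minus), Bnip3 chr7:138909584-138909639 (minus), Egln3 chr12:54204074-54204124 (minus), Hk2 chr6:82774477-82774704 (minus) and Pgk1 chrX:106186925-106186998 (plus).
Aldoa: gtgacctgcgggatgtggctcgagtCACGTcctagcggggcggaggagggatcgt
Ankrd37: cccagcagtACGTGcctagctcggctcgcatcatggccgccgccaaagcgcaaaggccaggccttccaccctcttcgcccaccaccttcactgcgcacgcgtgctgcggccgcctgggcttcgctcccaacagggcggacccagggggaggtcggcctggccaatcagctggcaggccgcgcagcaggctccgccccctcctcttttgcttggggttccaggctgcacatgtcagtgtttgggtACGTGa
Bnip3: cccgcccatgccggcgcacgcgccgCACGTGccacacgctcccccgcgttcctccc
Egln3: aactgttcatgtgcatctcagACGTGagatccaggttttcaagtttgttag
Hk2: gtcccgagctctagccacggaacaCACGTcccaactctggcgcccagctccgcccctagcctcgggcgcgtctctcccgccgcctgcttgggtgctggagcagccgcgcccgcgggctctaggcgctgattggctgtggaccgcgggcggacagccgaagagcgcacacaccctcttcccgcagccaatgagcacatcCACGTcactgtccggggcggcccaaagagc
Pgk1: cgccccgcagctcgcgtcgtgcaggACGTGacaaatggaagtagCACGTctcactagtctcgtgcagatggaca
Aldoa and Egln3 held 1 match, 126 and 229 bases before the start. Ankrd37, Hk2 and Pgk1 held 2, which in Ankrd37 lay 241 and 6 bases before the start. In Bnip3 the match reads the same on both strands, so that its 2 matches overlap. A match describes these letters only.

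Of 22 genes of amino acid stress and the unfolded protein response 9 fell and 0 rose (median -0.28), against 4.95% of all genes lower. Nupr1, a stress-induced chromatin protein, had 1087, 860 and 1248 against 202 and 51.6, a log2 change of -3.14 ± 0.47 (SE; adjusted p = 0.00565), the largest fall by the rule for named genes, and its second probe set changed by -3.18. Chac1, which degrades glutathione, had 1135, 766 and 862 against 180 and 241, and Trib3, a pseudokinase, 1264, 1171 and 1290 against 481 and 284. Ddit3 (CHOP) had 713, 863 and 1085 against 295 and 232, and Atf4, the transcription factor that drives this arm, 3882, 4030 and 3720 against 2371 and 2808, a log2 change of -0.58 ± 0.09 (adjusted p = 0.00604). The fall was seen in both arrays for all 5. The chaperone arm did not move with them: Hspa5, Hsp90b1, Pdia4 and Pdia6 had log2 changes of 0.34, 0.24, 0.40 and 0.29, and none passed. Kdelr3, an endoplasmic reticulum retention receptor, stood apart from them with 1231, 1003 and 1312 against 268 and 102. The count of 9 was 5 without control array 3 and 3 without probe sets that may match several transcripts.

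Of 19 genes of amino acid synthesis, transport and tRNA charging 10 fell and 0 rose (median -0.34), against 4.95% of all genes lower. Asns, asparagine synthetase, Phgdh and Psat1 stand in both lists. Asns had 8048, 7626 and 8225 against 4946 and 3385, a log2 change of -0.96 ± 0.14 (SE; adjusted p = 0.00502). The serine pathway enzymes Phgdh (4907, 4373 and 4771 against 3466 and 3096), Psat1 (6211, 6534 and 6467 against 5354 and 4786) and Psph (2679, 2672 and 2932 against 1825 and 1258) fell together. So did the mitochondrial enzymes Shmt2 (1808, 1921 and 2111 against 1279 and 1043) and Mthfd2 (882, 965 and 930 against 611 and 327) of the next steps, and Aldh18a1, of proline synthesis (1549, 1606 and 1805 against 1015 and 945). In all 7 enzymes knockdown array 2 was the lower. Pck2 and Gpt2, picked after their values were seen, fell from 572, 566 and 742 to 228 and 134 and from 932, 1300 and 1412 to 271 and 397. The count of 10 was 4 without control array 3 or with no trend in the variance, and 5 with the 5 arrays alone, without control array 2 or without knockdown array 2. It was 6 without control array 1 or with the low-value split as a block.

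ATF4 and its partners bind elements that include TGATGNAA, a form of the amino acid response element. In the same windows, searched on both strands, 3.97% of all 32851 held it, a share of windows, while genes were again counted by any window. Of the 9 stress genes that fell 5 held it (Asns, Chac1, Nupr1, Trib3 and Vldlr), and of the 13 that did not pass 3 did (Atf3, Herpud1 and Slc7a11). In the amino acid list 2 of 9 genes that fell and 3 of 6 that did not pass held it. Shown are 4 genes that fell, 5′ to 3′ on the strand of the gene, with the element or its reverse complement in capitals. The Asns stretch is chr6:7693210-7693257 (minus strand), Chac1 chr2:119351024-119351081 (plus), Nupr1 chr7:126625548-126625605 (minus) and Vldlr chr19:27216795-27216852 (plus).
Asns: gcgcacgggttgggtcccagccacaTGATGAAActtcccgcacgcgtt
Chac1: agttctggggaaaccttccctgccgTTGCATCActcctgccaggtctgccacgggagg
Nupr1: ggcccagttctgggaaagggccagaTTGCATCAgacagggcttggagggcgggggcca
Vldlr: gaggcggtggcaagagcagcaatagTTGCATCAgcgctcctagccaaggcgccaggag
The element lay 23 bases before the start in Asns, 193 in Chac1, 110 in Nupr1 and 200 in Vldlr. No match in a window says only that these letters were not in it.

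**Figure D4:**
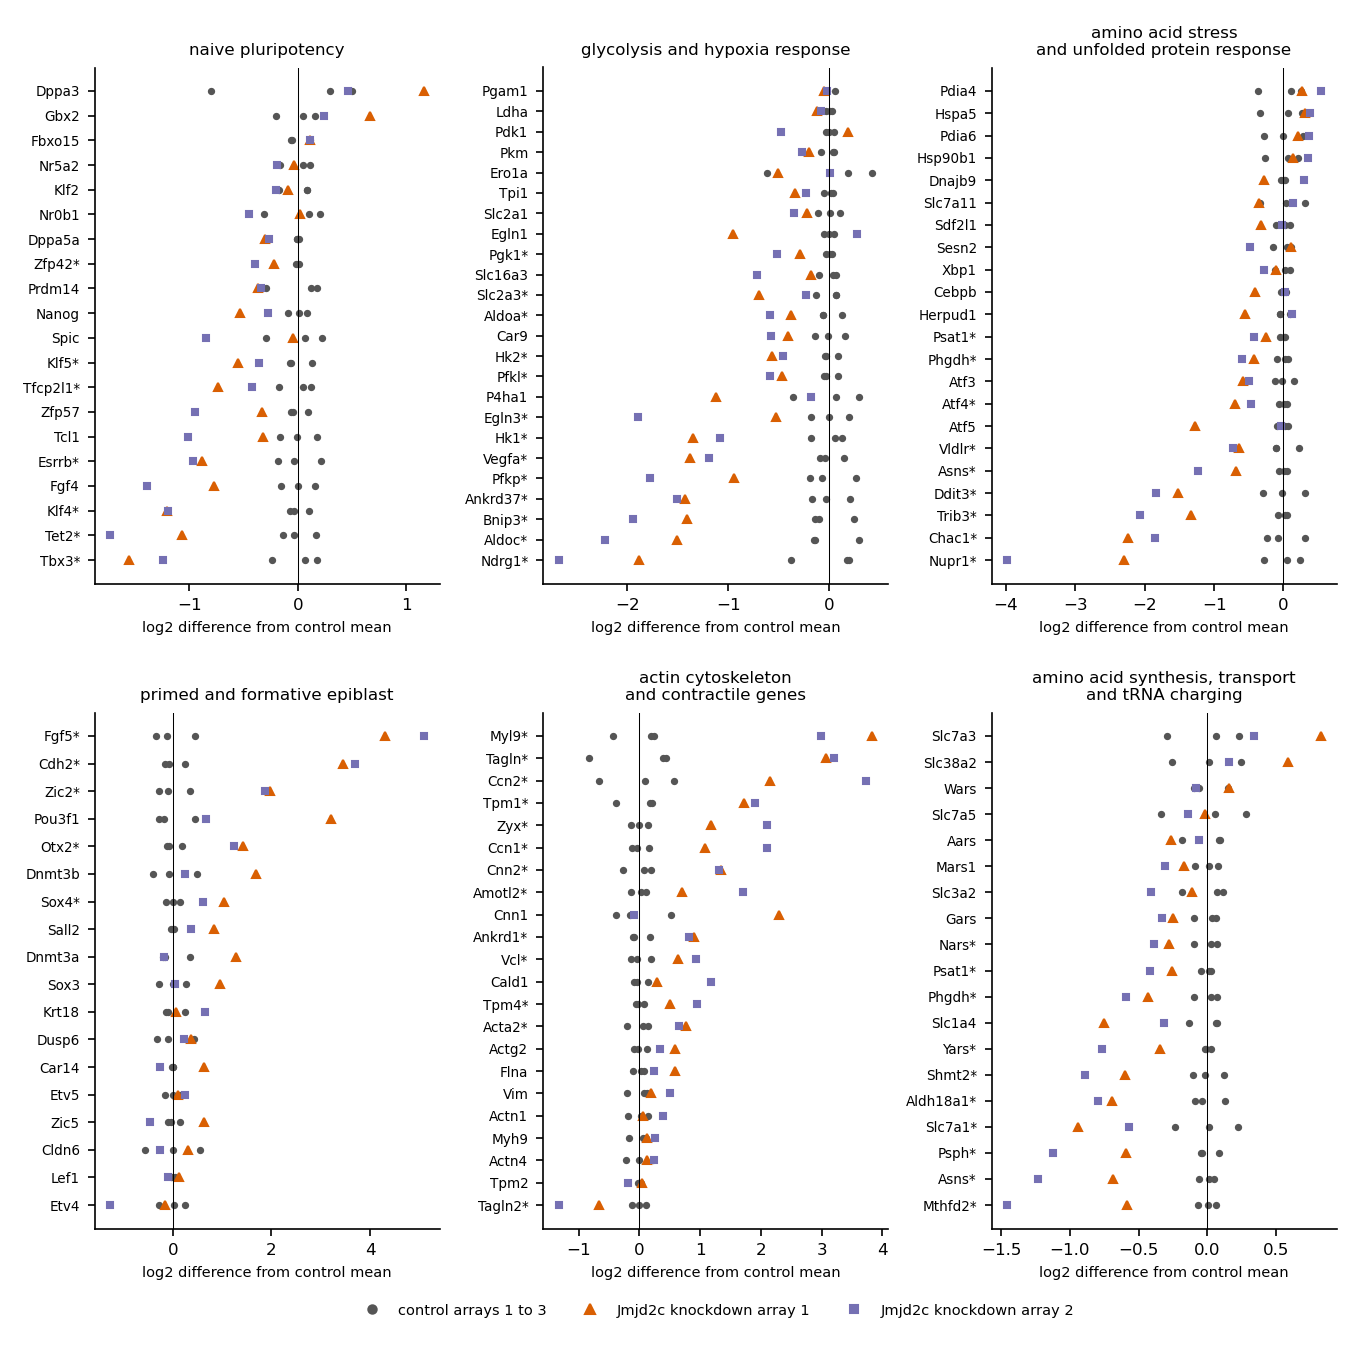
Log2 difference from the control mean for every measured gene of 6 lists, with circles for the 3 control arrays, triangles for Jmjd2c knockdown array 1 and squares for array 2; an asterisk marks genes past the test. All 24 glycolysis and hypoxia genes average below 0, 17 of 20 naive genes do, and in the primed list Pou3f1, Dnmt3b and Dnmt3a are far higher in array 1 than in array 2.

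Of the 12 largest falls, Dnah8 and Dnaic2, a heavy and an intermediate chain of axonemal dynein, had 512, 366 and 521 against 162 and 4.06 and 175, 104 and 135 against 23.1 and 8.86. Dnah8 differed strongly between the knockdown arrays and was past the test under 15 of 21 alternatives. Tgm2, tissue transglutaminase, had 1363, 683 and 1127 against 99.4 and 173, a log2 change of -2.81 ± 0.37 (SE; adjusted p = 0.00403). Slc11a1, a transporter of divalent metals, had 400, 269 and 405 against 56.8 and 27.7, a log2 change of -2.71 ± 0.24 (adjusted p = 8.35e-04). Camk2n1, an inhibitor of CaMKII, had 836, 448 and 675 against 110 and 70.5, and Pde8a, a cAMP phosphodiesterase, 837, 587 and 763 against 199 and 80.7. Lrrc31, a leucine-rich repeat protein, had 446, 279 and 455 against 91.5 and 33.4, and Ppp1r14d, an inhibitor of protein phosphatase 1, 179, 92.6 and 152 against 19.3 and 10.6. In each of these 8 genes but Tgm2 knockdown array 2 was the lower.

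Of 21 germline and meiosis genes 5 fell and 0 rose (median -0.11), against 4.95% of all genes lower. Stra8, which starts meiosis in response to retinoic acid, had 310, 200 and 215 against 52.6 and 19, a log2 change of -2.37 ± 0.30 (SE; adjusted p = 0.00345). Sycp3, of the synaptonemal complex, had 1203, 882 and 1096 against 490 and 240, and the cohesin subunits Rec8 and Smc1b had 228, 261 and 283 against 125 and 114 and 135, 88.8 and 174 against 56.8 and 34.5. Kit, a receptor of germ cells, had 818, 948 and 1151 against 521 and 600. Other genes of the list, such as Ddx4 (1148, 980 and 915 against 808 and 1086) and Hormad1 (143, 115 and 130 against 117 and 145), overlapped between the groups. The count was 3 with the 5 arrays alone, without control array 1 or without knockdown array 2, and 1 without control array 3.

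Of 20 imprinted genes, which are expressed from 1 parental copy, 4 rose and 1 fell (median 0.49). Of all genes, 4.02% were higher and 4.95% lower. Peg3, Ndn and Impact, all paternally expressed, had 539, 789 and 772 against 1519 and 1155, 518, 538 and 469 against 778 and 1792 and 1241, 1520 and 1239 against 1841 and 4014. Meg3, maternally expressed, had 1111, 1486 and 1565 against 2365 and 2078. Cdkn1c, a maternally expressed CDK inhibitor, fell from 706, 774 and 670 to 415 and 172. With the 5 arrays alone, and with the low-value split as a block, 0 of these genes were called in either direction with limma, and 11 and 10 had an unadjusted p under 0.05. Plagl1, a zinc finger gene, and Phlda2, also in this list, are among the genes that differed most between the knockdown arrays.

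Called proliferation genes went both ways, beside 4.02% of all genes higher and 4.95% lower. Of 19 genes of G2 and mitosis 1 fell, Nusap1 (3931, 3977 and 4228 against 2880 and 3224), and the median was -0.13. Nusap1 missed the threshold with the 5 arrays alone (adjusted p = 0.0536). Of 22 genes of G1, S phase and replication 2 rose and 3 fell (median of all 22 -0.02). Cdk6, a kinase of G1, had 174, 262 and 212 against 496 and 775, a log2 change of 1.47 ± 0.21 (SE; adjusted p = 0.00476), and its partner Ccnd1 rose from 2142, 2064 and 1831 to 3504 and 2489. E2f2 fell from 257, 231 and 268 to 77.3 and 111, and Rrm2, a ribonucleotide reductase subunit, and Pola1, of DNA polymerase alpha, fell by 0.37 and 0.51. Ccnd1 and Pola1 missed the threshold with the 5 arrays alone (adjusted p = 0.103 and 0.0815). Among 7 CDK inhibitors Cdkn1c alone passed. Cdkn2a had 149, 162 and 207 against 142 and 681, high in knockdown array 2 alone, and its change turned to -0.25 without that array.

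The counts of apoptosis, p53 and immediate early genes are set beside 4.02% of all genes higher and 4.95% lower. Of 18 apoptosis regulators 2 rose and 2 fell. Bcl2l1 (BCL-XL), which protects cells, had 295, 322 and 293 against 472 and 578, and Bcl2l11 (BIM), which promotes death, 311, 385 and 374 against 574 and 781. Mcl1, a protective member, fell by 0.27 and Bmf, a death-promoting one, from 1004, 805 and 964 to 510 and 124. Bcl2l1 passed with the 5 arrays alone, whereas Bcl2l11, Mcl1 and Bmf missed the threshold there (adjusted p = 0.0502, 0.0617 and 0.0908). Of 18 p53 targets 2 rose, Perp (286, 341 and 293 against 506 and 1228) and Plk2 (284, 306 and 296 against 457 and 550), and none passed with the 5 arrays alone. Of 20 immediate early genes 2 rose and 2 fell: Mycn (2654, 3514 and 3073 against 4970 and 5089) and Ier5 (190, 294 and 280 against 554 and 481) were higher, and Dusp1 (2171, 3054 and 3041 against 1280 and 1260) and Ier3 (473, 782 and 774 against 299 and 275) lower. With the low-value split as a block Mycn and Ier5 missed the threshold (adjusted p = 0.0570 and 0.102). In the MYC network Mxi1, a MAX partner that opposes MYC, fell from 1066, 949 and 1230 to 276 and 491, a log2 change of -1.51 ± 0.24 (SE; adjusted p = 0.00699).

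The counts of chromatin regulators are set beside 8.98% of all genes called in either direction. Of 20 genes of H3K9 and H3K36 methylation and heterochromatin 0 passed with limma, with a median of 0.08 and 7 at an unadjusted p under 0.05. Kdm1a (LSD1) had 5384, 5383 and 5880 against 4923 and 4208 (adjusted p = 0.0879). Of 19 other JmjC demethylases Kdm8 rose from 65.9, 64.1 and 49.7 to 109 and 115, and Kdm6b, an H3K27 demethylase, fell from 566, 682 and 692 to 475 and 244. Of 13 genes of DNA methylation and oxidation 1 rose and 2 fell: Gadd45a, linked to demethylation, had 508, 591 and 553 against 974 and 1300, while Tet1 and Tet2 fell, as given above. Of 19 COMPASS and BAF genes Setd1b rose (254, 354 and 316 against 685 and 514), and Kmt2c (656, 672 and 878 against 449 and 353) and Wdr5 (2650, 2464 and 2510 against 2053 and 1522) fell. With the 5 arrays alone Kdm8, Kdm6b, Setd1b, Kmt2c and Wdr5 missed the threshold (adjusted p = 0.0636, 0.120, 0.0545, 0.0563 and 0.0874). Of the called genes in these lists, Tet2 and Gadd45a alone changed by 2-fold or more.

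Counts of Polycomb components and of the lists that follow are set beside 4.02% of all genes higher and 4.95% lower. Of 24 Polycomb components 2 rose and 0 fell (median -0.00). Bmi1, a subunit of PRC1, had 90.8, 74.7 and 58.1 against 140 and 454, and Phc2 287, 284 and 266 against 398 and 666, both with array 2 the higher. Both calls were lost with the 5 arrays alone (adjusted p = 0.0902 and 0.0853) and with the low-value split as a block (adjusted p = 0.0843 and 0.0617). The PRC2 subunits, chosen after their values were seen, were Ezh2 (3456, 3739 and 3882 against 3255 and 3194), Eed (4397, 4561 and 4226 against 4009 and 3604) and Suz12 (3719, 4359 and 3938 against 2160 and 3565), and none passed. Among 36 developmental regulators that Polycomb marks in ES cells 7 were higher and 1 lower (median 0.10): Pax6, Msx1, Meis1, Cdx2, Isl1, Foxc1 and Lhx2 were higher and Gata2 lower. Isl1, a LIM homeobox factor, had 18.3, 18.6 and 17.5 against 41 and 58.1, and Meis1 21.9, 31.7 and 14.1 against 51.3 and 133. Foxc1, Isl1, Lhx2 and Cdx2 lay under the median of 63.1 in all 5 arrays. The count of 7 was 4 among brighter probe sets, 4 without control array 1 and 3 without control array 3 or knockdown array 2. Of 33 Hox genes 0 passed with limma (median -0.03, 5 at an unadjusted p under 0.05). Of 7 genes of the 2-cell-like state 0 did, and 0 had an unadjusted p under 0.05, Zfp352 having 8.64, 8.08 and 7.26 against 13.3 and 12.2.

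Counts of junction, matrix and SOX genes are set beside 4.02% of all genes higher and 4.95% lower. Of 19 cadherin and junction genes 3 fell and 1, Cdh2, rose (median -0.02). Cldn4, a claudin, had 733, 830 and 961 against 400 and 213, and the desmosome genes Dsg2 and Pkp2 had 959, 1229 and 1099 against 680 and 504 and 1280, 1960 and 2068 against 1099 and 860. Pkp2 missed the threshold with the 5 arrays alone (adjusted p = 0.0922) and Dsg2 with the low-value split as a block (adjusted p = 0.106). Cdh1, E-cadherin, had 4137, 5462 and 4723 against 6404 and 3183, so that the knockdown arrays lay on either side of the controls. Of 22 matrix genes 2 fell, the basement membrane protein Nid1 (1884, 2168 and 2240 against 1174 and 1484) and the protease inhibitor Timp1 (641, 680 and 788 against 464 and 307), and both missed the threshold with the 5 arrays alone (adjusted p = 0.0513 and 0.0647). Of 17 SOX factors 2 rose and 1 fell: Sox15 had 548, 441 and 541 against 235 and 210, a log2 change of -1.14 ± 0.21 (SE; adjusted p = 0.0120).

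Called genes of general metabolism and protein synthesis went both ways, beside 8.98% of all genes called in either direction. Of 11 measured cytosolic ribosomal protein genes 0 passed with limma, 1 had an unadjusted p under 0.05, and the median was 0.00. Rpl4 had 14071, 14390 and 14187 against 14407 and 14984. Of 20 respiratory chain genes 1 rose and 1 fell. The rise was Atp5g1, an ATP synthase subunit, with 1264, 1473 and 1362 against 3432 and 3342, a log2 change of 1.30 ± 0.09 (SE; adjusted p = 2.76e-04) larger than that of the other called gene, Ndufv1, which fell by 0.28. Its second probe set, dim in all arrays, changed by 0.26. Of 19 cholesterol and fatty acid genes Fasn alone rose, from 2396, 2998 and 2505 to 3921 and 3588, and of 19 lysosome and autophagy genes Ulk1, the kinase that starts autophagy, alone fell, from 1501, 1360 and 1519 to 996 and 854. Of 15 iron and metal genes 2 rose and 2 fell: the exporter Slc40a1 (ferroportin) had 52.6, 84.8 and 70.8 against 129 and 321 and Slc39a8, a zinc and iron importer, 13.8, 74.4 and 30.0 against 202 and 136, while Tfrc, the transferrin receptor, fell by 0.43 on the log2 scale and Slc11a1 as given above. With the 5 arrays alone Ndufv1, Fasn, Slc40a1, Slc39a8 and Tfrc missed the threshold (adjusted p = 0.104, 0.0610, 0.0813, 0.0634 and 0.114).

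**Figure D5:**
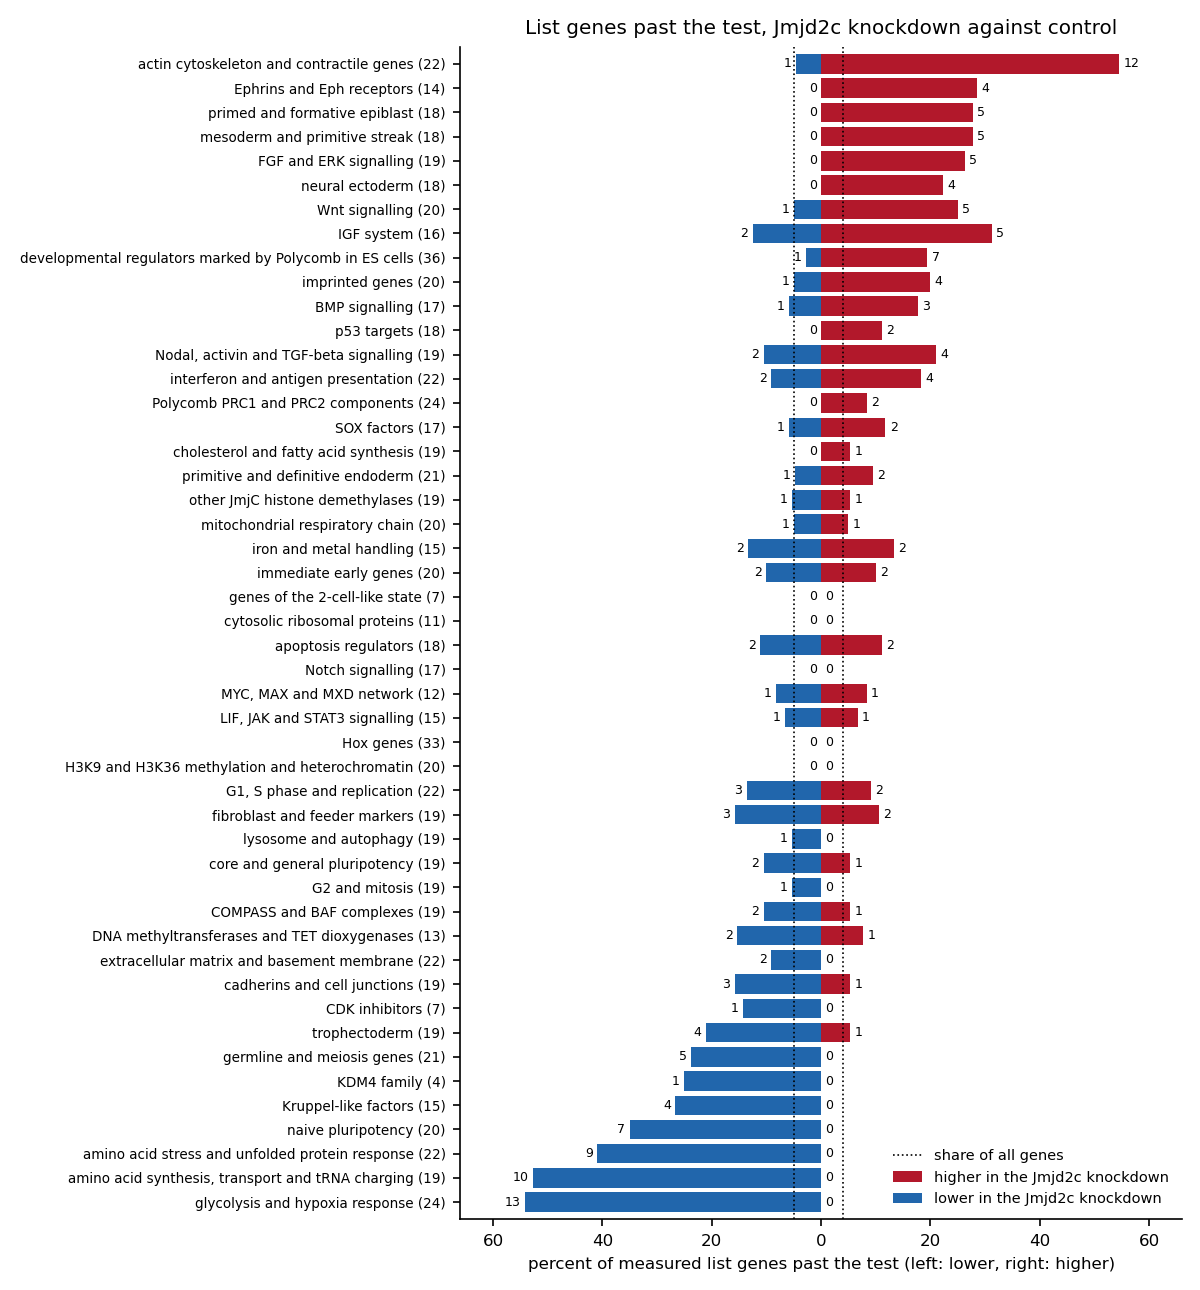
Percent of the measured genes of each of 48 lists past the test, lower to the left and higher to the right, with the number of genes at each bar and the number measured after each name. Dotted lines mark the share of all genes (4.95% lower, 4.02% higher); actin and contractile genes lie at the top with 12 of 22 higher, glycolysis and hypoxia genes at the bottom with 13 of 24 lower.

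Some genes were set far apart between the knockdown arrays, and for these the mean says little. Plagl1 had 130, 161 and 98.5 in the controls and 224 and 2350 in the knockdown, and Hecw2, a ubiquitin ligase, 8.82, 17.3 and 9.14 against 16.5 and 445. Anxa3, an annexin, had 37.3, 130 and 84.8 against 196 and 1291 and just passed (adjusted p = 0.0498). Pfn2, a profilin, had 386, 336 and 392 against 227 and 1274, Zxdb 70.2, 74.2 and 55 against 42.6 and 293, and Pmaip1 (NOXA), a death-promoting gene, 1078, 501 and 428 against 156 and 982. These 6 were higher in array 2. Higher in array 1 were Pou3f1 and Dnah8, given above, and Plac8, with 528, 874 and 877 against 1186 and 102. Wt1, a zinc finger factor of the urogenital system, had 11.8, 9.24 and 7.92 against 241 and 20.3, Phlda2, an imprinted growth regulator, 3088, 3497 and 3629 against 2689 and 387, and Pla2g1b, a phospholipase, 997, 892 and 919 against 1770 and 267. Of these 12 genes Dnah8 and Anxa3 passed the test.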

How the data were processed

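RNA from 5 ug samples of the cells was hybridised, as biotinylated cRNA, to Affymetrix mouse arrays of 45101 probe sets, per the labels' protocols. The deposited values are linear intensities, 1 per probe set and array; how the authors summarised, background-corrected and scaled them is not stated in the labels or files used here. Low intensities differ between arrays (a floor at 1 on some, values below 1 on others), which can move changes of dim genes.

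Probe sets were named from GEO's platform annotation: 34945 had exactly 1 symbol, 932 several and 9160 none listed, and 64 were array controls. The values were transformed as log2(intensity + 16), without further normalization. They were fitted with limma 3.58.1 (R 4.3.3; lmFit, eBayes with trend) over all 8 arrays as 3 groups, and the contrast Jmjd2c knockdown minus control was tested two-sided with Benjamini-Hochberg adjustment over 34945 probe sets. A gene is given by the probe set with the highest mean over the 8 arrays. The fit was tested on simulated data with known changes. The precision is limited by 3 control and 2 knockdown arrays.

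Named genes were Kdm4a to Kdm4d, the 12 largest rises and 12 largest falls past the test (both knockdown arrays on 1 side of all controls, higher group mean above the median intensity of 63.1), in each of 48 lists up to 4 genes with the smallest p, and 6 genes each way that differed most between the knockdown arrays; clone names were passed over. Other members of the lists, the PRC2 subunits and genes said to be picked after their values were seen lie outside that rule. Of 953 list entries 887 were measured (805 different genes). The members and lists were chosen with earlier results of these data known. Alternatives were another pseudocount (4 or 64), other normalization, filters and probe set rules, the low-value split (whether an array holds values below 1) as a block and the arrays on 1 side of it alone, a replicate block, the 5 arrays alone and each array left out. The labels state no pairing by number, so the numbers were not taken as pairs. Deviations of same-numbered arrays from their group means correlated at 0.0233 and 0.0546. With 2 knockdown arrays, whose deviations mirror each other, these correlations cannot decide whether arrays were paired. Promoter windows came from RefSeq's GRCm38.p6.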

Additional observations from a re-analysis of the deposited data

How the results depend on the processing

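Of the 135 named genes past the threshold besides Kdm4c, 61 passed under every alternative except the fit within arrays that hold values below 1, where 0 passed. Against 1227 higher and 1341 lower probe sets, the 5 arrays alone gave 454 and 581, the mean of a gene's probe sets 613 and 820, 1 probe set per gene 785 higher, the low-value split (whether an array holds values below 1) as a block 630 higher, and the fit within arrays that hold values below 1 gave 0 and 0 with limma (3927 at an unadjusted p under 0.05), with Kdm4c at -2.15 (adjusted p = 0.309). That fit leaves 1 control array. Leaving out 1 array at a time, the counts ranged from 304 to 2444 higher and from 290 to 1942 lower, and the change of Kdm4c from -3.04 to -1.42. Both lowest counts were without control array 3. Of the named genes, Kdm4c among them, 136 passed, 0 did within arrays that hold values below 1, and 69 to 128 did with 1 array left out. Of the list genes 168 passed, 100 with the 5 arrays alone, 0 within arrays that hold values below 1, and 63 to 154 with 1 array left out. With the replicate number as a block, although the labels state no pairing by number, 1039 were higher and 962 lower. In that limma fit Kdm4c changed by -2.29 (adjusted p = 0.00815), and 124 named and 141 list genes passed. Median centring gave 1450 higher and 1279 lower and quantile normalization 1415 and 1400. Changes of sign, all in genes not past the test, were Kdm4a as the mean of its probe sets (0.15), Kdm4d within arrays that hold values below 1 (0.11), without control array 1 (0.06) and without knockdown array 2 (0.04), and Cdkn2a and Tcstv1 without knockdown array 2. With 1 array left out, Kdm4d ranged from -0.18 to 0.06, Cdkn2a from -0.25 to 1.90 and Tcstv1 from -0.09 to 0.48. The highest of the Cdkn2a changes was that without knockdown array 1. The causes of these differences were not tested. Over all alternatives 3340 values kept direction and side of the threshold, 497 lost the threshold, 76 gained it and 6 changed sign.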
